A study of Schizosaccharomyces pombe with 9 samples.

Results

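The contacts examined here are T-to-C conversion positions in the 3' untranslated regions (3'UTRs) of fission yeast messenger RNAs, from PAR-CLIP of the histone deacetylase Clr3. A position was taken when it lay on the sense strand in an annotated 3'UTR exon of a protein-coding gene and not inside a same-strand rRNA, tRNA, snRNA or snoRNA. Crosslinked replicate 1 had 705 such positions, crosslinked replicate 2 had 448 and the library without crosslinking 8, together 1161 of the 11620 called rows and 1153 distinct nucleotides. Clr3 is a catalytic subunit of SHREC, a complex that removes acetyl groups from histones in silent chromatin.

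All 3 libraries came from the same Schizosaccharomyces pombe strain, of mating type h+, which carries ura4-delta18 and leu1-32 besides ade6-M216. It also has a ura4+ reporter at imr1R(NcoI) in a centromere and clr3-3HA-TAP, a tagged Clr3 marked with kan MX. Per the labels' protocols, cells grew at 30 °C with 10 mg/l uracil and 4% glucose in 100 µM 4-thiouracil, followed by a further 900 µM for 4 h. The 2 crosslinked libraries were irradiated at 365 nm with 12 J/cm2. The third library is named as made without crosslinking by its title and by the series design, although its protocol text also mentions irradiation. Tagged Clr3 was pulled down with IgG beads and its RNA partly digested by RNase T1, an enzyme that cleaves 3' of guanosine. Cells without the tag were not analysed here, so RNA held by other proteins on the beads cannot be told apart from RNA held by Clr3. In PAR-CLIP, a crosslinked 4-thiouridine is read as C in place of T.

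The 3'UTR is the part of an mRNA between the stop codon and the poly(A) tail. It carries the signals for cleavage and polyadenylation, of which AAUAAA is the best known, and sites for proteins that set the stability, transport and translation of the message. In fission yeast these include Puf proteins, the AU-rich element protein Zfs1 and Mmi1, which marks meiotic transcripts for decay. Seb1 binds nascent RNA near its 3' end; 6 RNA-seq samples of wild-type and seb1-1 cells in the same series were not analysed here.

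The sequences below surround the 7 nucleotides in 3'UTRs that were called in both crosslinked libraries, since these are the positions with a repeat. Each is 21 nt of the transcribed strand from the RefSeq genome, read 5′ to 3′, with the converted T in capitals; the deposited coordinates are in build ASM294v2.
tdh1, II:2808655-2808675, plus strand: atcatcccgaTgctaagaaac
pil1, III:350996-351016, plus strand: cttaatttaaTaagctggcgt
pma1, I:3871810-3871830, minus strand: tacacgagttTcctgccggct
rps1202, II:498459-498479, minus strand: cttttgttcaTacacaataaa
rpl13, I:1711846-1711866, plus strand: ctgtagttaaTggatcaggca
sro1, II:4083053-4083073, plus strand: tgattgaattTtcggttgctg
tdh1, second position, II:2808962-2808982, plus strand: taaatacttaTaaataaattt

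Of these windows, those of rps1202 and of the second tdh1 position hold aataaa downstream of the T. The next windows are shown because the replicates were called close together but not at the same nucleotide. In rpl15, a 60S ribosomal protein gene, the positions are neighbours. In mre11, a DNA repair nuclease gene, 3 positions lie within 20 nt of each other, and these positions were singled out after their values were seen.
rpl15, replicate 1, III:2100490-2100510, plus strand: ttggcgctaaTtgtaatatct
rpl15, replicate 2, III:2100491-2100511, plus strand: tggcgctaatTgtaatatctc
mre11, replicate 2, I:438995-439015, plus strand: tttatgaaaaTactataaatt
mre11, replicate 1, I:439004-439024, plus strand: atactataaaTtaaccaattg
mre11, replicate 1, I:439015-439035, plus strand: taaccaattgTtcctactgag

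Most 3'UTR calls rested on little evidence. All positions with a single conversion had exactly 3 reads, so 33.3% of their reads were converted. These made up 488 of the 705 sites of crosslinked replicate 1 (69.2%, Wilson 95% interval 65.7 to 72.5) and 346 of the 448 in crosslinked replicate 2 (77.2%, 73.1 to 80.9). The no-crosslink library listed none among its 8 sites, each of which had 2 conversions. Coding sites held a smaller share of such calls, 49.7% (48.2 to 51.1) in crosslinked replicate 1 and 68.7% (67.1 to 70.2) in crosslinked replicate 2. The positions with at least 2 conversions numbered 217, 102 and 8 in 3'UTRs and are kept apart below. Of these, 149 and 84 had 2 conversions in the crosslinked libraries, 47 and 13 had 3, 13 and 2 had 4, and 8 and 3 had 5 or more. Intervals cover counting error only, since each comes from a single library whose sites share reads and genes. Reads were not counted by molecular identifier, which bears on the intervals of converted reads below.

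Called positions were thinner in 3'UTRs than in coding sequence in both crosslinked libraries. 3'UTRs hold 23.1% of the T nucleotides of mRNA exons (741033 of 3202880). In crosslinked replicate 1 they held 12.6% (11.8 to 13.5) of exonic mRNA sites and in crosslinked replicate 2 they held 10.9% (9.96 to 11.9), a mean of 11.7% ± 1.22 (SD, n = 2). Crosslinked replicates 1 and 2 had calls at 0.0951% and 0.0605% of the T nucleotides in 3'UTRs, and the control at 0.00108%. Over all mRNA exons the shares were 0.175%, 0.129% and 0.00219%. Per 1000 T, 3'UTRs had 0.951 and 0.605 sites in the crosslinked libraries, coding sequence 2.06 and 1.55, and 5'UTRs 1.44 and 1.06. The order was the same in both libraries, and the gap between 3'UTR and coding rates was larger than the difference between replicates within either region. In the control 3'UTRs had 0.0108 sites per 1000 T and coding sequence 0.0262, from 8 and 57 sites, so 3'UTRs were the thinner region there too. The 3'UTR share of exonic sites in the control was 11.4% (5.91 to 20.96), which covers both crosslinked values. All control calls in mRNA exons had at least 2 conversions, while most crosslinked 3'UTR calls had 1, so unlike calls are compared.

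**Figure D1:**
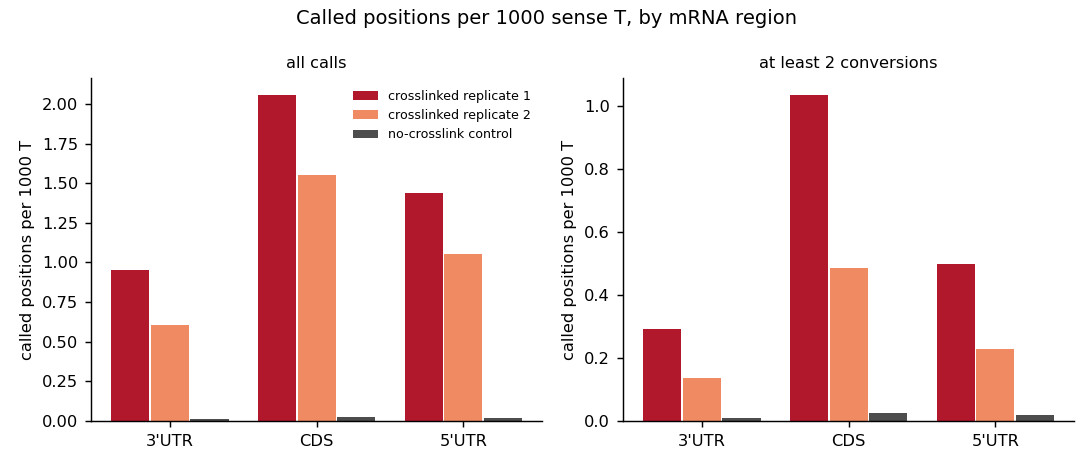
Called positions per 1000 sense T nucleotides in 3'UTRs, coding sequence (CDS) and 5'UTRs, one bar per library; left, all calls, and right, calls with at least 2 conversions. In both crosslinked libraries the 3'UTR bar is the lowest of the 3 regions, at 0.951 and 0.605 for all calls, and control bars are near 0.

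Conversions followed the sites. 3'UTRs held 1038 conversions in 18828 reads in crosslinked replicate 1, 576 in 5581 reads in crosslinked replicate 2 and 16 in 146 reads without crosslinking. That was 10.5% (9.93 to 11.1), 9.74% (9.01 to 10.5) and 10.0% (6.25 to 15.6) of the conversions at exonic mRNA positions. Among calls with at least 2 conversions the 3'UTR share of sites was 8.30% (7.31 to 9.42) and 8.34% (6.92 to 10.02) in the crosslinked libraries. The control share, all from such calls, was 11.4% (5.91 to 20.96), which covers both. The 3'UTR share of conversions at such calls was 7.99% (7.37 to 8.65) and 7.63% (6.73 to 8.63), against 10.0% in the control. The 3'UTR rate of such calls was 0.293 and 0.138 per 1000 T, against 1.04 and 0.485 in coding sequence. No test between regions was made, because sites of a library share their reads and genes and are not replicates. With 2 libraries against 1, no exact permutation p below 1 in 3 is possible for any contrast with the control.

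Sites in 3'UTRs lay toward the stop codon. The median distance from the stop codon was 142 nt in crosslinked replicate 1 and 151 nt in crosslinked replicate 2, against 248 nt for all T of annotated 3'UTRs. The quartiles were 51 and 335 nt in the first library and 53.8 and 334 nt in the second, so the sites spread over most of the annotated lengths. Expressed as a share of the 3'UTR, the mean position was 40.0% and 39.0% of the way to the end, while all T of the same 3'UTRs, weighted by their sites, averaged 49.5% and 49.7%. With at least 2 conversions, the means were 37.2% and 36.7%, and the medians were 84.0 and 79.5 nt from the stop. The 8 control sites had a median of 29.5 nt, with 5 of them within 50 nt.

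The rate fell within the first stretch after the stop codon. In the last 25 nt of coding sequence the crosslinked libraries had 2.18 and 1.34 sites per 1000 T. In the first 25 nt of the 3'UTR they had 2.15 and 1.46, close to the coding level on the other side of the stop. At 26 to 50 nt the rates were 1.58 and 0.788, at 51 to 100 nt 1.22 and 0.861, and at 201 to 300 nt 0.954 and 0.573. Beyond 800 nt they were 0.291 and 0.240. Different genes fill these bins, since short 3'UTRs contribute only to the first. Over the 1470 genes with 3'UTRs longer than 400 nt, the rates were 1.40 and 1.33 in the first 50 nt and 0.995 and 0.789 at 51 to 100 nt. They were 1.14 and 0.735 at 101 to 200 nt and 1.01 and 0.666 at 201 to 400 nt. Past the first 50 nt the fall was thus steady in crosslinked replicate 2 alone. Among calls with at least 2 conversions, the same long 3'UTRs showed no steady fall in either library. They had 0.273 and 0.137 per 1000 T in the first 50 nt, 0.137 and 0.172 at 51 to 100 nt, 0.280 and 0.140 at 101 to 200 nt and 0.201 and 0.119 at 201 to 400 nt. This subset was added after the other values were seen, and its last rates rest on 8 and 4 sites in the first 50 nt and 22 and 13 at 201 to 400 nt.

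At the other end, the rate over all calls was low in the last 50 nt before the annotated cleavage point. The median distance to the transcript end was 235 and 238.5 nt, against 262 nt for all T of 3'UTRs. In the last 25 nt the rate was 0.719 and 0.162 per 1000 T, from 31 and 7 sites, the lowest but for the bin of 800 nt or more in crosslinked replicate 1 and the lowest of all bins in crosslinked replicate 2. At 50 to 99 nt it was 1.11 and 0.695, and at 200 to 399 nt 1.18 and 0.767. Sites with at least 2 conversions lay in shorter 3'UTRs. Their median 3'UTR length was 270 and 351 nt, against 596 nt over all T. Within 50 nt of the end lay 12.9% and 9.80% of them, against 12.0% of all T, and within 100 nt 32.7% and 32.4%, against 23.2%. The part of 3'UTR length in these shares was not tested. The rate of such sites per 1000 T also fell toward the end. It was 0.515 and 0.275 at 50 to 99 nt, 0.410 and 0.182 at 25 to 49 nt and 0.186 and 0.0464 in the last 25 nt. Those in the last 25 nt were 8 and 2 sites. Far from the end the rate was low too, 0.165 and 0.0786 at 400 to 799 nt.

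**Figure D2:**
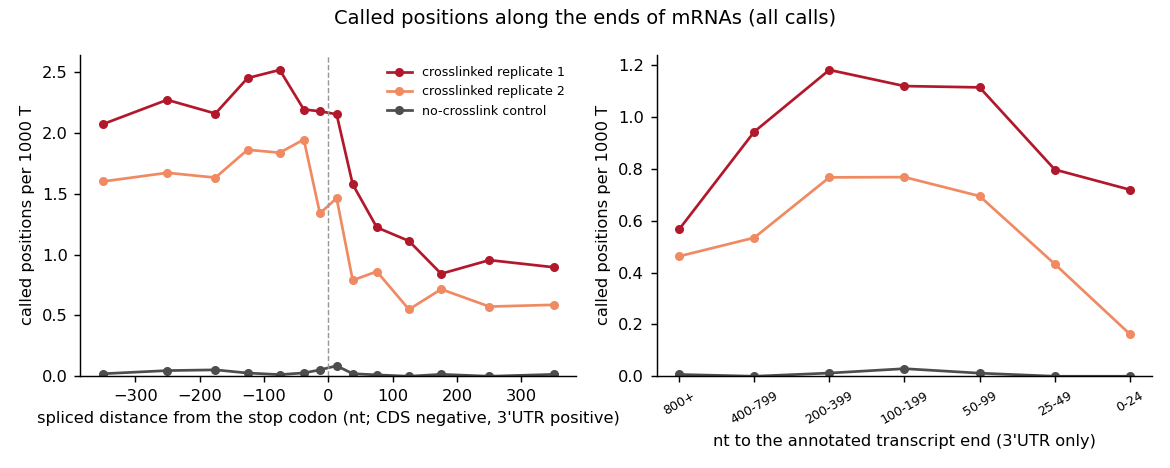
Called positions per 1000 T against the spliced distance from the stop codon (left, nt, coding sequence negative) and against the distance to the annotated transcript end (right, nt, binned, the end at the right), one line per library. In both crosslinked libraries the rate drops over the first 50 nt after the stop and again within 50 nt of the transcript end.

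The shortest 3'UTRs had the highest rate and the longest the lowest in both crosslinked libraries, with no steady order between. In 3'UTRs of at most 150 nt the rates were 2.02 and 0.947 sites per 1000 T. They were 1.16 and 0.656 at 151 to 300 nt, 1.06 and 0.844 at 301 to 600 nt, and 0.685 and 0.413 in longer 3'UTRs. The 138 ribosomal protein genes, described below, had a median 3'UTR of 119 nt and 6.90 and 4.42 sites per 1000 T, and their part in this difference was not tested. The lean toward the stop codon was present in every length class, with mean positions between 36.4% and 41.8% of the length in crosslinked replicate 1 and between 30.3% and 41.7% in crosslinked replicate 2, against 49.0% to 50.3% for all T.

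Of 4727 genes with an annotated 3'UTR, 566 had a 3'UTR site in crosslinked replicate 1 and 376 in crosslinked replicate 2, and 8 had one in the control. In both crosslinked libraries 105 genes had one, 2.22% of all, which is 18.6% of the genes of crosslinked replicate 1 and 27.9% of those of crosslinked replicate 2. With at least 2 conversions at a site in each, the number was 33. Most genes had a single site, 467 and 318 of those counted, and 25 and 10 had 3 or more. Over the 105 genes, log2 conversions plus 1 per gene gave a Spearman's rho of 0.65 and a Pearson's r of 0.75 between the libraries. These genes were chosen for a site in both. Over the 837 genes with a site in either library, where a gene not called in one counts as 0, the coefficients were -0.51 and -0.28. Only 105 of the 837 were called in both, and every other gene is 0 in 1 library by the choice of the set. That choice pulls the coefficients below 0, so their sign does not measure agreement. The genes share depth and abundance in both libraries, and the values are a description. A 3'UTR site was accompanied by a coding site of the same gene in 336 of 566 genes (59.4%) in crosslinked replicate 1 and 196 of 376 (52.1%) in crosslinked replicate 2. Among all genes with a 3'UTR, coding sites were found in 46.9% and 39.5%.

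At the level of single nucleotides the replicates shared 7 3'UTR positions, 0.993% of those in crosslinked replicate 1 and 1.56% of those in crosslinked replicate 2. All 7 had at least 2 conversions in both libraries, which makes them 3.23% and 6.86% of such sites. None was called in the control, which had only 8 3'UTR calls, so absence there carries little weight. The first tdh1 position, 18 nt after the stop codon, had 17 converted of 1102 reads in crosslinked replicate 1 (1.54%, 0.965 to 2.46), and 4 of 351 in crosslinked replicate 2 (1.14%, 0.444 to 2.89). tdh1 encodes glyceraldehyde-3-phosphate dehydrogenase of glycolysis. The position in rps1202, a 40S ribosomal protein gene, lay 18 nt after the stop and had 4 converted of 32 reads (12.5%, 4.97 to 28.1), and 3 of 16 (18.8%, 6.59 to 43.0). In sro1, whose product has no described role in the annotation used, 3 of 32 (9.38%) and 2 of 14 reads (14.3%) were converted 536 nt after the stop. The remaining positions were converted in 1.59% to 4.44% of reads in crosslinked replicate 1 and 2.91% to 6.90% in crosslinked replicate 2. Intervals of the 2 libraries overlapped at each of the 7 positions. These were chosen for a call in both libraries and mostly rest on few conversions, so overlap was likely in advance.

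**Figure D3:**
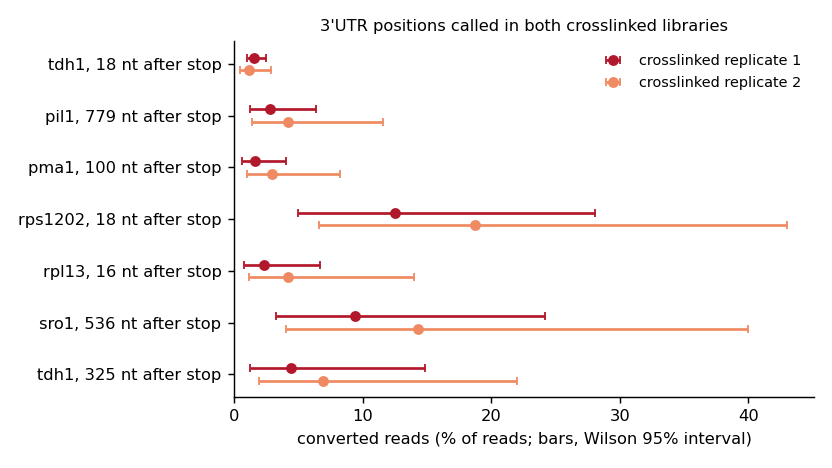
Percent of reads converted, with Wilson 95% intervals, at the 7 3'UTR positions called in both crosslinked libraries, labelled by gene and distance from the stop codon. The intervals of the libraries overlap at every position, which was likely in advance for positions chosen by a call in both. The highest shares are those of rps1202 and sro1, on 32 and fewer reads.

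The 20 genes with the largest mean share of 3'UTR conversions, among those with a site in both crosslinked libraries, held 182 of the 1038 conversions (17.5%) in crosslinked replicate 1 and 105 of 576 (18.2%) in crosslinked replicate 2. They were chosen by these values, which are therefore a description. The gene with most was an enzyme of glycolysis. The tdh1 3'UTR (II, 2808648 to 2809051, plus strand) held 36 and 19 conversions at 6 and 5 positions, and 0 in the control, 3.38% ± 0.12 of all 3'UTR conversions (SD, n = 2). Its further positions included II 2808891 with 8 of 566 reads converted in crosslinked replicate 1, and II 2808653 and 2808812 with 5 of 381 and 5 of 105 in crosslinked replicate 2. The tdh1 positions thus ran from 6 nt to 333 nt after the stop codon of a 404 nt 3'UTR. adh1, alcohol dehydrogenase, held 7 and 11 conversions, pgk1, phosphoglycerate kinase, 12 and 5, gpm1, phosphoglycerate mutase, 13 and 4, and eno101, an enolase, 6 and 2. In tdh1 the 3'UTR held 43.4% and 39.6% of the conversions of the coding and 3'UTR parts together, and 40.9% of their T nucleotides. In adh1 it held 21.9% and 19.3% of conversions with 41.1% of the T. In gpm1 the 3'UTR held 34.2% and 11.1% of conversions with 23.5% of the T, and the replicates fell on either side.

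The eisosome genes pil1 and fhn1 were also among the 20. Eisosomes are protein assemblies under furrows of the plasma membrane, and Pil1 is their core protein. pil1 (3'UTR at III, 350228 to 351165, plus strand) held 16 and 9 conversions at 6 and 4 positions, 1.55% ± 0.0149 of 3'UTR conversions, and 0 in the control. fhn1, with a 3'UTR of 1902 nt, held 8 and 7 conversions at 4 and 3 positions between 165 and 1540 nt after the stop. Its coding sequence had 0 sites in crosslinked replicate 1, against 4 in crosslinked replicate 2, while 81.7% of the T of both parts lie in the 3'UTR.

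The other members had varied annotations. pma1, the plasma membrane proton pump, held 14 and 5 conversions in its 3'UTR, and 2 in the control at a different nucleotide. These were 12.8% and 5.95% of its coding and 3'UTR conversions, while the 3'UTR holds 12.2% of their T. act1, actin, had 6 and 4 conversions, sum3, a translation initiation helicase, 2 and 8, and tef103, a translation elongation factor 1-alpha gene with near-identical coding copies, 4 and 5. The ribosomal protein genes were rpl4101 with 11 and 3, rpl8 with 5 and 4, rps1202 with 4 and 3, rpl15 with 4 and 2 and rps2602 with 4 and 2. Of the 20 genes, 13 had a coding site in crosslinked replicate 1 and 15 in crosslinked replicate 2. Among all genes with a 3'UTR site in those libraries 59.4% and 52.1% had a coding site. Among all genes with a 3'UTR 46.9% and 39.5% had a coding site. pdh1, sro1, rpl15 and mre11 had no coding site in either library. In the 3'UTR, pdh1 held 6 and 4 and sro1 3 and 3 conversions. SPAC25B8.12C, a nucleotide-sugar phosphatase gene, held 9 and 2, and mre11, described below, 12 and 3.

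**Figure D4:**
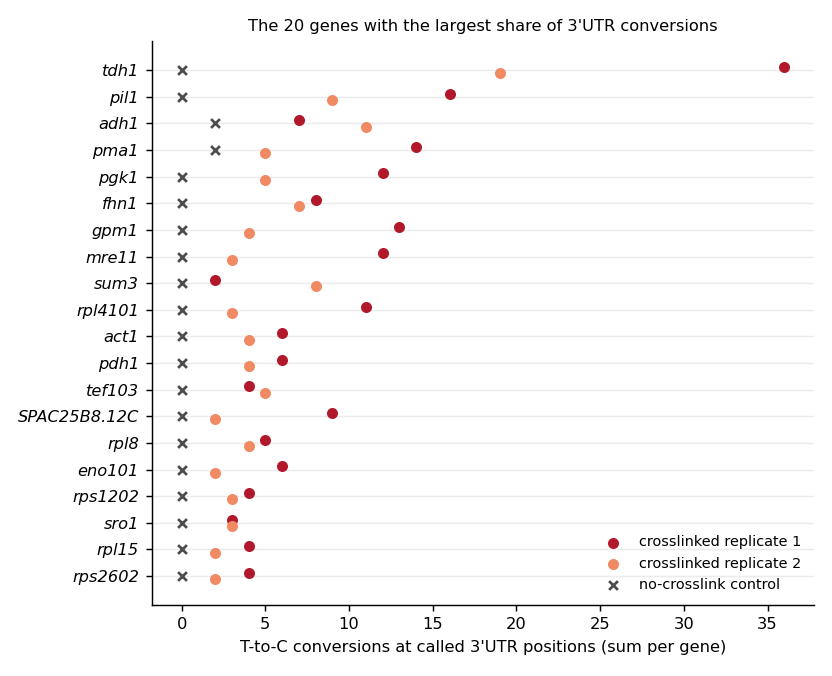
Conversions summed over called 3'UTR positions for the 20 genes with the largest mean share, one row per gene; circles are the crosslinked replicates and crosses the control. tdh1 stands highest with 36 and 19, and the control is at 0 for all but adh1 and pma1, at 2 each.

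Gene lists were read against the 2.22% of genes with a 3'UTR site in both crosslinked libraries. Ribosomal protein genes had one in 10 of 138 members with a 3'UTR (7.25%), with 53 and 34 sites of which 49 and 26 had at least 2 conversions. Over all 3'UTR sites, 217 of 705 (30.8%) and 102 of 448 (22.8%) had at least 2 conversions. Glycolysis and fermentation genes reached 6 of 17 (35.3%), chaperones 3 of 23 (13.0%), among them ssa2 with 4 and 2 conversions and hsp90 with 2 and 2. Translation factors had 1 of 16, transporters and cell wall genes 1 of 27 and histones 1 of 11, which was htb1 with 3 and 1. Genes for 3'UTR binding and mRNA decay had 2 of 33 (6.06%): puf1, a Puf family gene, with 2 and 3 conversions, and edc3, a decapping enhancer, with 1 and 1, all of them calls of 1 read in 3. Genes of 3' end formation (24 with a 3'UTR), SHREC and silencing (13) and the phosphate response (7) had 0 in both. In crosslinked replicate 1 these lists had 7, 6 and 2 sites, and in crosslinked replicate 2 they had 2, 1 and 1. The counts read RNA abundance and contact together and set no limit on contact where they are 0, since only called positions are listed.

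Within a list, 3'UTR and coding rates compare the same genes. In ribosomal protein genes the 3'UTR had 6.90 and 4.42 sites per 1000 T and the coding sequence 12.3 and 9.28. Chaperone genes had 4.97 and 4.14 in 3'UTRs and 11.5 and 7.50 in coding sequence, and histone genes 1.90 and 3.33 against 10.7 and 9.09. The order differed between the libraries in the glycolysis and fermentation list and in the SHREC and silencing list, and in each other list the 3'UTR rate was the lower in both. Glycolysis and fermentation genes had 15.1 and 7.82 in 3'UTRs and 10.7 and 13.7 in coding sequence. SHREC and silencing genes had 2.52 and 0.421 in 3'UTRs, from 6 sites and 1 site, and 1.41 and 0.804 in coding sequence.

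The strength of conversion in 3'UTRs was described from the positions with at least 2 conversions. The median share of converted reads was 4.76% in crosslinked replicate 1 (quartiles 3.08 and 8.70), 7.06% in crosslinked replicate 2 (4.50 and 16.3) and 15% in the control. Coding positions had medians of 4.35%, 4.76% and 8.33%. The number of reads bears on these shares, since a position with few reads must have a high share to be called. Median reads per 3'UTR position were 46.0, 28.5 and 13.5. Only 2 of 217 and 4 of 102 positions were converted in over 50% of reads, and 1 of 8 in the control. In each of these but SPAC9E9.02 the value was 2 of 3 reads. In SPAC9E9.02, a gene with no name, I 4435022 was converted in all 6 of 6 reads, where the reference depth was 3.

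The occupancy that the authors give for each position is its conversions divided by a whole number. This number is read as the depth of a reference library that the labels do not name, and is called the reference depth. Positions with at least 2 conversions in 3'UTRs stood at high reference depth, with a median of 3161 in crosslinked replicate 1 and 5101 in crosslinked replicate 2, against 750.5 and 1456 in coding sequence and 164.5 and 184 in 5'UTRs. The control's 8 sites had a median of 4762.5. Over all calls the 3'UTR medians were 169 and 212.5, near the coding 186 and 182. The reference depth of nuclear sites ended at 100006, and 6 3'UTR positions had at least 90000. At positions with at least 2 conversions, reads amounted to a median of 1.39% and 0.525% of the reference depth in 3'UTRs, 5.88% and 2.36% in coding sequence and 22.0% and 9.74% in 5'UTRs. Over all calls the median ratio of reads to reference depth was 0.0259 and 0.0170 in 3'UTRs, 0.0423 and 0.0248 in coding sequence and 0.0968 and 0.0714 in 5'UTRs. Both ratios were lowest in 3'UTRs in both libraries. Over sites, Spearman's rho of reads with reference depth was 0.60 (n = 217) and 0.51 (n = 102), which is a description of sites chosen by their reads.

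**Figure D5:**
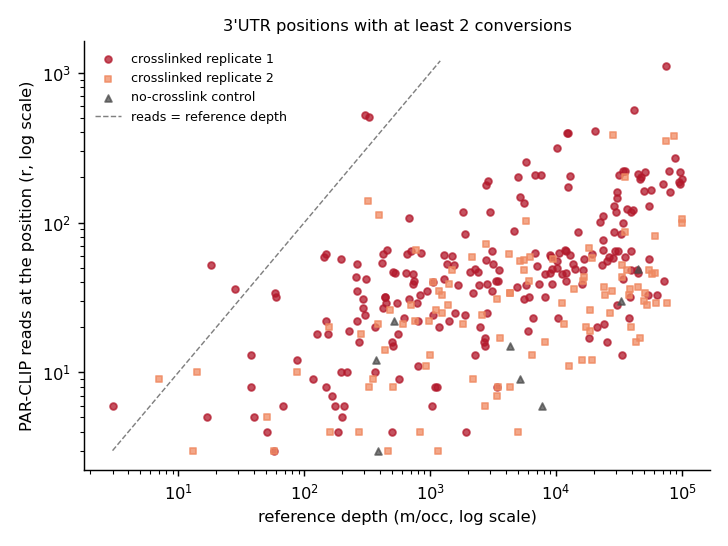
PAR-CLIP reads against reference depth at 3'UTR positions with at least 2 conversions, both axes logarithmic, one symbol per library; the dashed line marks equal values. All but 6 points lie below the line, and the 2 mre11 positions of crosslinked replicate 1, with 509 and 524 reads, are the deepest above it.

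Only 5 3'UTR positions with at least 2 conversions in crosslinked replicate 1 and 1 in crosslinked replicate 2 had more reads than reference depth. The deepest were in mre11, whose 3'UTR (I, 438370 to 439980, plus strand) is annotated at 1611 nt. I 439014 was converted in 7 of 509 reads and I 439025 in 5 of 524 in crosslinked replicate 1, at reference depths of 324 and 306. I 439005 was converted in 3 of 140 reads in crosslinked replicate 2, at a reference depth of 323. mre11 had no site in its coding sequence in any library, and no other gene is annotated at these positions on either strand. The others were in mug153, SPAC9E9.02, SPBC19C7.04C and ppe1. The mug153 and ppe1 sites, 29 and 2 nt from the annotated end, also lie within the start of a downstream gene on the same strand, tps3 and ssa2.

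The bases next to 3'UTR sites differed from those next to all T of 3'UTRs in the same direction in both crosslinked libraries. The base before the converted T was A at 40.1% and 37.9% of sites, 47.5% and 44.1% with at least 2 conversions, and 28.3% for all T of 3'UTRs. The base after it was G at 22.7% and 22.3% of sites (25.3% and 19.6% with at least 2 conversions), against 16.5%, and T at 34.3% and 34.2% (32.3% and 28.4%), against 42.3%. These are descriptions with no test. Averaged over a wider window the offsets were smaller. Over the 10 nt on each side, G made up 16.5% and 16.8% in the crosslinked libraries, 17.5% and 17.6% with at least 2 conversions, and 15.3% around all T of 3'UTRs. T made up 37.2% and 37.0%, against 38.3%. Motifs were searched within 20 nt of a site on the transcribed strand alone, and a sequence could count for more than one motif. The poly(A) signal AATAAA was near 4.26% (3.00 to 6.01) and 4.02% (2.56 to 6.26) of sites and near 5.04% of all T of 3'UTRs. With at least 2 conversions the direction was the other way, 6.45% (3.88 to 10.5) and 6.86% (3.36 to 13.5), from 14 and 7 sites. These intervals cover the value of all T. TGTA, found in Puf and Seb1 type sites, was near 19.9% and 19.2% of sites (20.7% and 21.6% with at least 2 conversions) and 18.7% of all T. The Puf core TGTANAT was near 4.54% (3.23 to 6.34) in crosslinked replicate 1 but 2.01% (1.06 to 3.77) in crosslinked replicate 2, against 2.74%. With at least 2 conversions it was near 7 of 217 sites (3.23%, 1.57 to 6.51) and 0 of 102. TTAAAC, a Mmi1 site, was near 2.27% and 1.56% (2.76% and 1.96% with at least 2 conversions), against 2.00%. ATTTA was near 15.7% and 13.4% (17.1% and 16.7% with at least 2 conversions), against 16.6%. TATTTAT, of the Zfs1 type, was near 2.13% and 2.23% (1.84% and 0.980% with at least 2 conversions), against 2.82%. Of the poly(A) signal variants, ATTAAA was near 4.40% and 4.24% (4.15% and 4.90% with at least 2 conversions), against 4.34%. AATGAA was near 2.70% and 2.68% (1.84% and 0 of 102 sites with at least 2 conversions), against 3.00%. The run of T, TTTTTT, was near fewer sites, 10.2% (8.19 to 12.7) and 8.48% (6.24 to 11.4), than of all T, 13.8%. With at least 2 conversions TTTTTT was near 5.53% (3.19 to 9.42) and 4.90% (2.11 to 11.0).

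The 8 positions of the no-crosslink library lay in rps7, pma1, gpd2, knh4, rpl2502, nda3, fyu1 and adh1. These include 2 ribosomal protein genes, a glycerol-3-phosphate dehydrogenase, beta-tubulin (nda3) and a UTP-glucose-1-phosphate uridylyltransferase (fyu1). All had 2 conversions, on 3 to 49 reads. Only the rps7 position, I 2241916, was also called in a crosslinked library, in 3 of 211 reads of crosslinked replicate 1 (1.42%, 0.485 to 4.10), against 2 of 49 in the control (4.08%, 1.13 to 13.7). The two-sided Fisher exact test on the reads of these libraries did not pass (adjusted exact p = 0.349). The adjustment was over the 41 nuclear positions called in both, of which 22% passed. With crosslinked replicate 2, where 32.4% of 34 passed, no 3'UTR position was shared. In both comparisons most positions that passed had a lower converted share after crosslinking than in the control, and the others a higher share. None of them lay in a 3'UTR. The adh1 control position, III 1592744, with 2 of 30 reads, was next to III 1592745, converted in 3 of 52 reads in crosslinked replicate 2. In pma1 the nearest crosslinked site was 23 nt from the control site, and knh4, rpl2502, nda3 and fyu1 had 0 3'UTR sites after crosslinking.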

How the data were processed

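PAR-CLIP of TAP-tagged Clr3 was deposited as 1 table of called positions per library: 2 crosslinked replicates and 1 without crosslinking. The authors' deposited counts per position are the converted reads (m) and the covering reads (r), read so from the values. The authors' deposited p-value ends at 0.00499. The authors' deposited occupancy is a ratio, m divided by a whole number. The submitters' processing notes name Bowtie 1.1.1, SAMtools and build ASM294v2. They name no site caller. The tables hold called positions alone, so library depth is unknown.

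All nuclear positions (6560, 4742 and 127) were a T of the named strand in the supplied RefSeq genome, labelled ASM294v3, whose annotation was used. Mitochondrial positions and the contig AB325691 were not used. The longest transcript of each gene was taken; a base in several 3'UTRs went to the nearest stop codon, and one both in a 3'UTR and in another gene's coding sequence counted as 3'UTR. A 31 nt window around each site was unique in the genome for 704 of 705, 448 of 448 and 8 of 8. Of the list symbols, 6 had no match. Python 3.11.15, pandas 2.3.3 and SciPy 1.17.1 were used, and the counting was tested on simulated rows. The Fisher exact test carried Benjamini-Hochberg adjustment at 0.05.

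The members and gene lists were chosen with earlier results of these data known. Named genes were the 20 with the highest mean share of 3'UTR conversions and a site in both crosslinked libraries, the 5 with most sites, all positions shared or called in the control, and up to 4 members per list. The labels do not say that the replicates came from separate cultures, so their SD may be technical.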

Additional observations from a re-analysis of the deposited data

How the results depend on the processing

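With only calls of at least 2 conversions, the mean over the crosslinked libraries was 159.5 sites (576.5 with all calls), 8.32% of exonic mRNA sites, 7.81% of conversions, 0.215 per 1000 T, 81.8 nt from the stop codon and 164.75 nt from the transcript end, and 33 genes had a site in both. With the authors' p of at most 0.001, these were 72.5 sites, 9.44%, 9.04%, 0.0978 per 1000 T, 71.0 nt and 168.5 nt; 12 genes and 3 positions were shared. The cause of the shorter distances was not tested. Leaving out control positions, or 3'UTR sites that also lie in a same-strand exon of another gene (13 and 5), moved no mean by more than the SD between replicates and no count by over 1.5 times; counting positions within 2 nt as shared gave 10. With a single replicate the sites numbered 448 to 705 (10.9% to 12.6% of exonic sites, 9.74% to 10.5% of conversions, 0.605 to 0.951 per 1000 T, medians 142 to 151 nt and 235 to 238.5 nt). No paired analysis was possible because the control has no number that pairs it with a crosslinked replicate and no contrast of these libraries was fitted.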
